A study of Danio rerio with 12 samples.

Results

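The collagen genes were examined in RNA-Seq of zebrafish heads at 5 days post fertilization (5 dpf), in larvae homozygous for a deletion in *rb1* and in their wild-type siblings. Members were all genes of the deposited count table whose name begins with col, a number, the letter a and a number, and that had at least 10 counts over the 12 sequencing lanes. This rule found 53 of the 32266 genes in the table. Among them, *col4a3bpa* and *col4a3bpb* carry a collagen name but encode ceramide transfer proteins, and they are given apart below, which leaves 51 collagen rows with 49 distinct symbols. A *col6a3* and a *col19a1* row each have a second row with the same symbol and fewer counts, called the minor row here. No row lay close to the count minimum, since the lowest member, *col10a1b*, had 281 counts over all pools, and 1 further row, a second *col5a3b* identifier, had none and was dropped. All 51 collagen rows passed the filter on low counts, and none was lost from the test.

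Mutant larvae were homozygous for *rb1Δ7*, an inherited frameshift deletion, and wild-type larvae were their +/+ siblings from an incross of heterozygous fish. All larvae were of the WIK strain and were taken at the same age. Each genotype was represented by 3 libraries, and each library by a pool of 5 dissected heads, so that differences between single larvae are averaged within a pool. Values of single pools are given in the order of pools 1, 2 and 3 throughout. Counts of the *rb1* transcript itself were 570, 491 and 422 in the mutant and 1221, 830 and 826 in the wild type, without overlap between the genotypes. A library held between 41065256 and 47700950 counts on genes after its 2 lanes were summed.

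Collagens are secreted proteins in which 3 chains wind into a triple helix, and each chain is encoded by its own gene. Fibrillar collagens assemble into the fibrils of cartilage, bone, dermis and cornea, network-forming collagens build basement membranes and the matrix around hypertrophic chondrocytes, and fibril-associated collagens with interrupted triple helices (FACIT) sit on the surface of fibrils. In the larval head these proteins make up most of the matrix of the pharyngeal cartilages, the first dermal bones, the skin and the coats of the eye.

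Few collagen genes passed a test of the genotype difference in these heads. The rule of the study for a changed gene, an adjusted p of at most 0.01 with a change of at least 1.5-fold, was met by 0 of the 51 collagen rows in either direction in edgeR's quasi-likelihood test. Over the 22753 genes tested the same rule called 0.286% lower and 0.897% higher in the mutant. At an unadjusted p under 0.05 there were 3 collagen rows with a lower and 1 with a higher mean in the mutant, whereas 23.3% of all genes tested passed that limit. At an adjusted p of at most 0.05 in edgeR's quasi-likelihood test, *col28a1a* was lower and *col8a1a* was higher, which is 1 row in each direction, beside 2.17% of all genes lower and 3.82% higher. DESeq2 placed the same 2 genes past the rule of the study, with an adjusted p of 0.000133 for *col28a1a* and 0.000857 for *col8a1a*, and it called 1.98% of all genes lower and 2.81% higher by that rule.

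Most of the other rows were measured closely enough to bound their difference. The 95% interval of the fold change lay within 1.5-fold in both directions for 41 of the 51 collagen rows, beside 52.2% of all genes tested, and within 2-fold for 48. Intervals that reached beyond 1.5-fold belonged to 10 rows with a median of 2725.5 counts over all pools, whereas the other rows had a median of 49941. Among these 10 rows, *col10a1a* and *col17a1a* had the most counts, at 140963 and 47649. The median log2 fold change of the 51 rows, mutant over wild type, was -0.10 with the main scaling and -0.04 with scaling by library totals alone, and the median over all genes moved from -0.01 to 0.05 between the same scalings. The fitted value was below 0 for 46 rows and above 0 for 5, and it ran from -1.19 in *col10a1b* to 1.01 in *col8a1a*. Over all 22753 genes tested, 11783 had a fitted value below 0 and 10970 above 0.

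**Figure D1:**
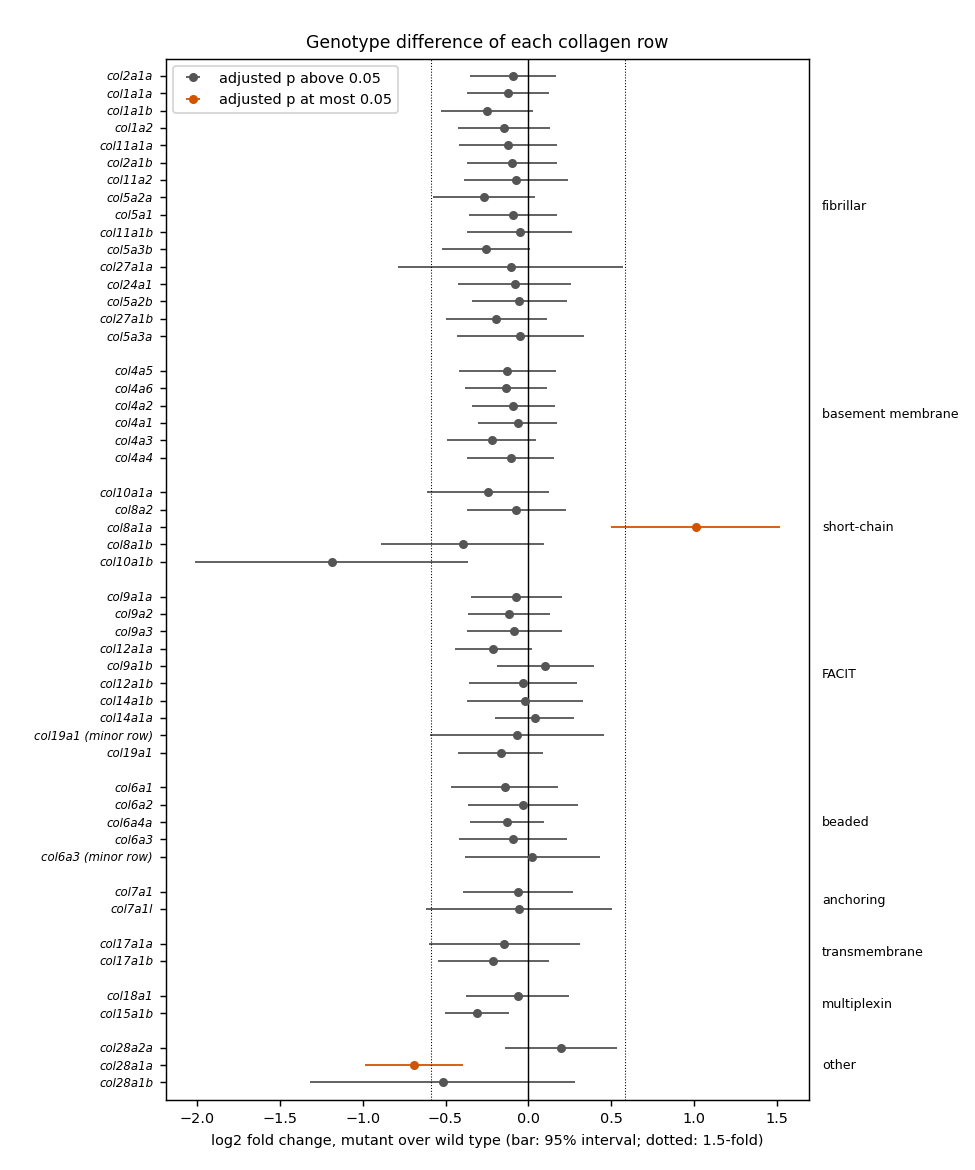
Genotype difference of each of the 51 collagen rows, grouped by structural class. The horizontal axis is the log2 fold change, mutant over wild type, points are fitted values, bars are 95% intervals, and dotted lines mark 1.5-fold. The points of *col8a1a* at 1.01 and *col28a1a* at -0.69 are coloured because their adjusted p was at most 0.05.

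Collagen transcripts took 1.502%, 1.41% and 1.40% of the gene counts in the mutant pools, a mean of 1.44% ± 0.0574 (SD). In the wild-type pools they took 1.66%, 1.53% and 1.32%, a mean of 1.503% ± 0.174. The genotypes overlapped, because wild-type pool 3 had the lowest share of all 6 pools. A few genes carried most of these counts, with 34.6% of them on *col2a1a*, *col1a1a* and *col11a1a* and 67.7% on the 10 genes with the most counts. Levels of different genes were compared per exonic length as FPKM, counts divided by exonic length and by the total of the pool, with each value a mean over the 6 pools. The mean FPKM spanned 0.499 for *col10a1b* to 476 for *col2a1a*, with 29 rows at 10 or more, 17 rows from 1 to under 10 and 5 rows under 1.

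**Figure D2:**
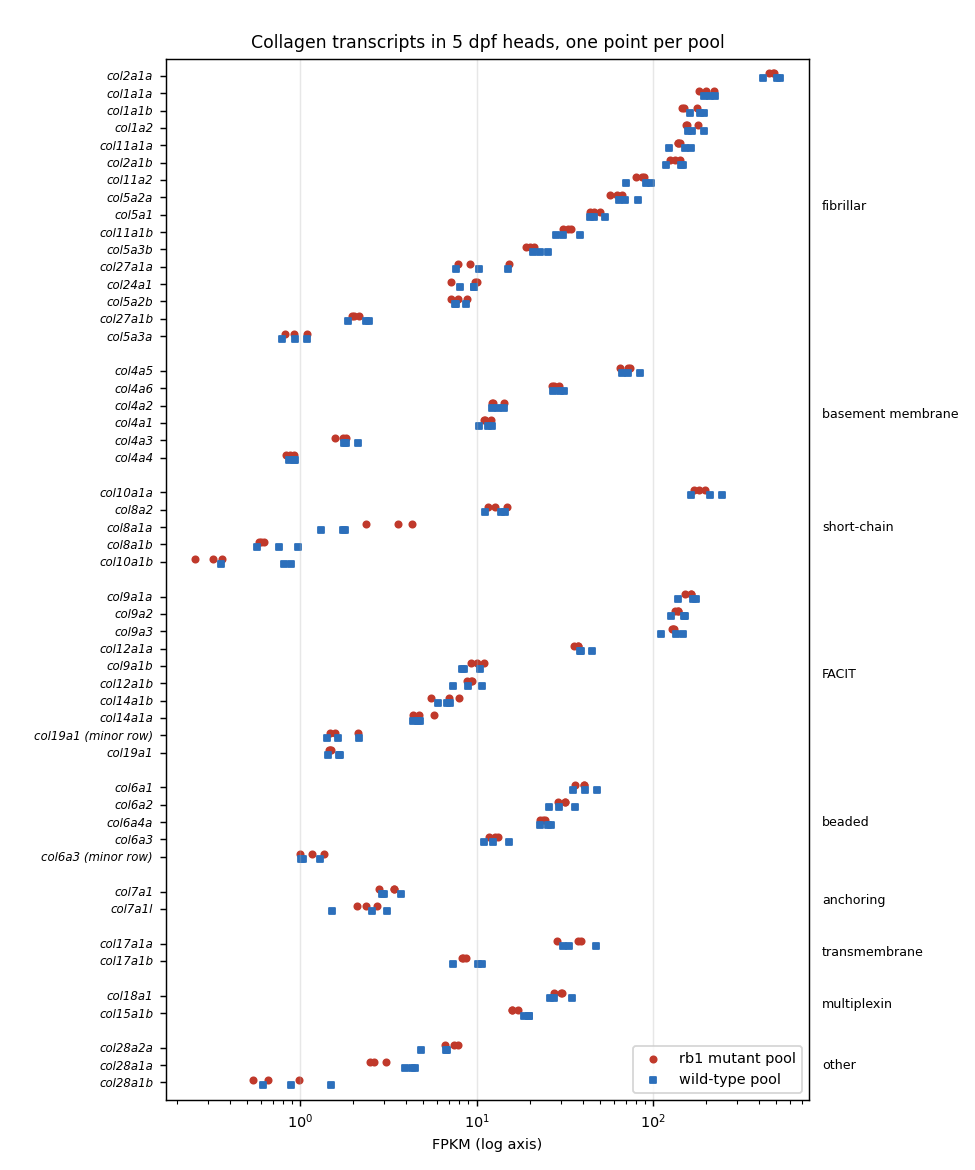
Level of each collagen row in each pool, in FPKM on a log axis, with rows grouped by structural class and ordered by mean level within it. Red circles are the 3 mutant pools and blue squares the 3 wild-type pools. *col2a1a* lies highest at a mean of 476, and the genotypes overlap in most rows.

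The marker of cartilage among the collagens is *col2a1a* (ENSDARG00000069093), which encodes the chain of type II collagen, the main fibril of cartilage. Its level, in TMM-scaled CPM, was 2809.6, 2700.3 and 2748 in the mutant pools and 3198, 3088 and 2518 in the wild-type pools. The mutant pools lay between the lowest and the highest wild-type pools, so the groups overlapped. The log2 fold change of *col2a1a* was -0.09 with a standard error of 0.11 and a 95% interval of -0.35 to 0.17 (adjusted p = 0.683, edgeR's quasi-likelihood test). It ranked between 12 and 23 by counts among all genes of a pool.

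Types II, IX and XI collagen assemble into the heterotypic fibrils of cartilage, and their 9 rows moved within a narrow range. The log2 fold changes of these rows ran from -0.12 to 0.10, with a median of -0.08, and all 9 of their 95% intervals lay within 1.5-fold. After *col2a1a*, the most abundant of them per length was *col9a1a*, a chain of type IX collagen, which coats type II fibrils, at 159 ± 7.36 FPKM in the mutant and 161 ± 19.5 FPKM in the wild type. Its partner chains *col9a2* and *col9a3* had 136.5 ± 2.48 and 129 ± 1.93 FPKM in the mutant against 142 ± 14.2 and 132 ± 18.9 FPKM in the wild type. *col11a1a*, which encodes a chain of type XI collagen, the core of thin cartilage fibrils, was at 139.8 ± 2.55 FPKM in the mutant and 146 ± 21.5 FPKM in the wild type. In each of these genes the mutant pools were close together and fell inside the wider wild-type range. The 18 further markers of cartilage cells that are in the table had a median log2 fold change of -0.05. Of these, 0 had an edgeR adjusted p of at most 0.05. An unadjusted p under 0.05 was seen for 2, beside 23.3% of all genes tested. With the pool number as a block *acanb*, an aggrecan gene, was lower (adjusted p = 0.0481), and with DESeq2 *nkx3.2*, a jaw joint factor, was higher (adjusted p = 0.0423).

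Type I collagen is the fibril of bone, skin and tendon, and in zebrafish its trimer is built from the products of *col1a1a*, *col1a1b* and *col1a2*. *col1a1a* was the second most abundant collagen per length, with 1297, 1132 and 1123 CPM in the mutant pools against 1381, 1305 and 1177 CPM in the wild-type pools. The ranges overlapped, and the log2 fold change was -0.12 (95% interval -0.37 to 0.13). For *col1a1b* the log2 fold change was -0.25 (95% interval -0.53 to 0.03), and for *col1a2* it was -0.15 (95% interval -0.42 to 0.13). None of the 3 genes passed the test, with adjusted p between 0.264 and 0.552 in edgeR's quasi-likelihood test.

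The remaining fibrillar genes encode chains of types V, XXIV and XXVII. Type V collagen copolymerises with type I and sets fibril diameter. Its genes *col5a1* and *col5a2a* had log2 fold changes of -0.09 (95% interval -0.36 to 0.17) and -0.27 (95% interval -0.57 to 0.04). The value of *col5a2a* was the largest in size among the 16 fibrillar rows, and all 16 had a fitted value below 0 with none at an edgeR adjusted p of at most 0.05. *col27a1a*, a gene of cartilage and notochord in zebrafish, varied more between pools than between genotypes. Its CPM was 32.8, 52.9 and 29.4 in the mutant pools and 38.8, 56.8 and 28.4 in the wild-type pools. Pool 2 was the highest of its genotype in both groups, and the interval of the log2 fold change, -0.79 to 0.57, was correspondingly wide.

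Type VIII and X collagens are short chains that form hexagonal networks, and they held the widest differences in both directions. *col8a1a* (ENSDARG00000077403) encodes a chain of type VIII collagen, which in mammals is found in the basement membrane beneath the corneal endothelium and in vessel walls. The mutant pools held 387, 458 and 242 counts of it, against 139, 167 and 179 in the wild-type pools. In CPM these were 7.90, 9.18 and 5.46 against 3.05, 4.18 and 3.98, so that every mutant pool lay above every wild-type pool, and mutant pool 3 lay closest to the wild type. The means were 7.51 ± 1.89 CPM and 3.74 ± 0.601 CPM. The log2 fold change was 1.01 with a standard error of 0.22, a 2.01-fold higher level with a 95% interval of 1.42-fold to 2.86-fold (adjusted p = 0.0400, edgeR's quasi-likelihood test). When 1 pool was left out at a time, the log2 fold change stayed between 0.84 and 1.19, but the adjusted p of edgeR's quasi-likelihood test ran from 0.0162 to 0.147 and was at most 0.05 only without mutant pool 3. Across all genes, leaving out a pool also lowered the number past the rule of the study from 269 to between 1 and 219.

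The other type VIII genes did not pass the test. *col8a2*, the partner chain, was at 13.1 ± 1.67 FPKM in the mutant and 13.1 ± 1.80 FPKM in the wild type (log2 fold change -0.07, 95% interval -0.37 to 0.23). *col8a1b*, the second copy of the *col8a1* gene, had a log2 fold change of -0.40 with an interval of -0.89 to 0.10 and a mean of 0.688 FPKM over all pools. As a result the ratio of *col8a1a* to *col8a1b* per length was 5.45 in the mutant and 2.14 in the wild type, as geometric means over pools.

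*col10a1a* and *col10a1b* encode chains of type X collagen, the product of hypertrophic chondrocytes and, in zebrafish, also of bone-forming cells. *col10a1a* was the third most abundant collagen per length, with 507, 426 and 490 CPM in the mutant pools and 668, 573 and 441 in the wild-type pools. The groups overlapped through wild-type pool 3, and the log2 fold change was -0.24 (95% interval -0.61 to 0.13). *col10a1b* (ENSDARG00000101535) was the least abundant collagen, with 32, 36 and 24 counts in the mutant, against 79, 76 and 34 in the wild type. In CPM every mutant pool, from 0.541 to 0.721, lay below every wild-type pool, although wild-type pool 3 at 0.756 was only just above the mutant range. Its log2 fold change was -1.19 (95% interval -2.01 to -0.36), with an edgeR adjusted p of 0.0955, and of 0.0439 when the pool number was added as a block. At an adjusted p of at most 0.05 the fit with this block called 4.03% of all genes lower and 5.1% higher. DESeq2, which called 5.16% lower and 6.25% higher at that limit, gave *col10a1b* an adjusted p of 0.0348. With 1 pool left out at a time, the edgeR adjusted p of *col10a1b* ran from 0.0328 to 0.296. It was at most 0.05 only without wild-type pool 3.

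Type XXVIII collagen is a chain of von Willebrand factor A domains around a short triple helix, and in mouse it lies around the Schwann cells of peripheral nerves. *col28a1a* (ENSDARG00000077084) was counted 487, 511 and 568 times in the mutant pools, against 852, 724 and 737 times in the wild-type pools. In CPM these were 9.94, 10.2 and 12.8 against 18.7, 18.1 and 16.4, and every mutant pool was below every wild-type pool, with a gap between the groups. The mean fell from 17.7 ± 1.21 CPM in the wild type to 10.998 ± 1.58 CPM in the mutant. The log2 fold change was -0.69 with a standard error of 0.13, a level 1.61-fold lower with a 95% interval of 1.31-fold to 1.98-fold (adjusted p = 0.0251, edgeR's quasi-likelihood test). With 1 pool left out at a time the log2 fold change ran from -0.81 to -0.62, and the adjusted p in edgeR's quasi-likelihood test from 0.0130 to 0.128, at most 0.05 only without mutant pool 2 or mutant pool 3. The related genes *col28a1b* and *col28a2a* had log2 fold changes of -0.52 (95% interval -1.31 to 0.28) and 0.19 (95% interval -0.14 to 0.53), and neither passed the test. In whole heads, fewer cells of a type and less RNA per cell cannot be told apart, and this holds for each difference given here.

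**Figure D3:**
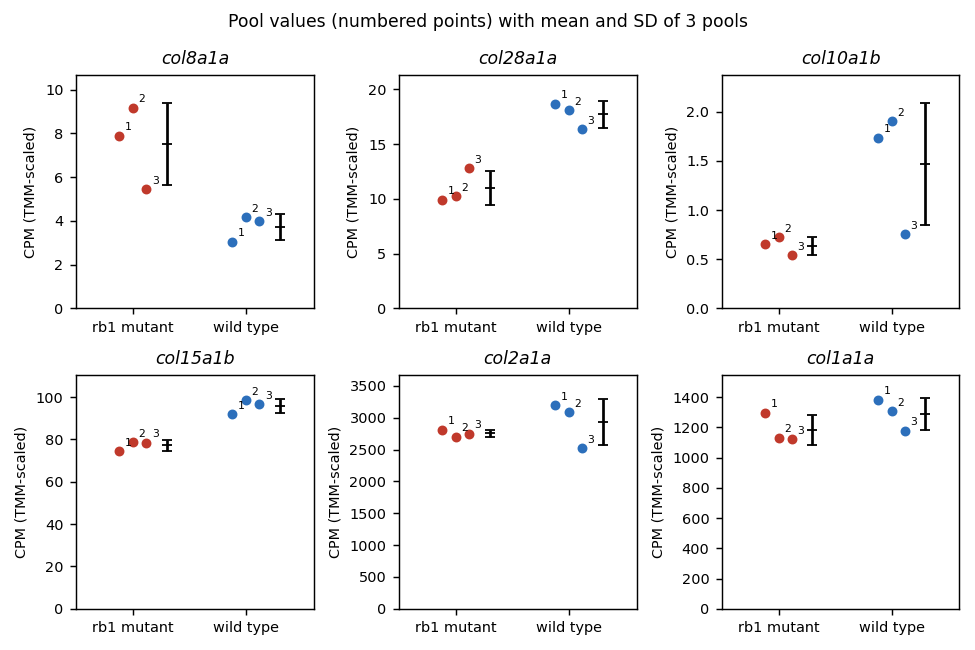
Level of 6 collagen genes in each pool, in CPM with axes from 0. Numbered points are the pools, red for mutant and blue for wild type, and the bars give the mean and SD of 3 pools. Mutant pools lie above all wild-type pools for *col8a1a*, below all of them for *col28a1a*, *col10a1b* and *col15a1b*, and overlap with them for *col2a1a* and *col1a1a*.

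Few collagen rows had genotypes whose pools did not overlap. In TMM-scaled CPM every mutant pool was below every wild-type pool for 5 of the 51 rows, beside 13.2% of all genes tested. These 5 rows were *col28a1a*, *col10a1b*, *col15a1b*, *col4a3* and *col12a1a*. Every mutant pool was above every wild-type pool for 1 row, *col8a1a*, beside 16.1% of all genes. With scaling by library totals alone the count of rows below was 3, because *col4a3* and *col10a1b* then overlapped. With the main scaling and fewer pools to separate, that count was 23 without wild-type pool 3, 11 without mutant pool 3 and 8 without mutant pool 1. It was 5 without mutant pool 2, 7 without wild-type pool 1 and 6 without wild-type pool 2. The 13.2% holds for the full set of pools, and no share of all genes is given for the smaller sets. *col15a1b* (ENSDARG00000061848) encodes a multiplexin, a collagen of the zone next to basement membranes, and was the row with the least scatter between pools. Its CPM was 74.3, 78.7 and 78.4 in the mutant pools and 91.8, 98.6 and 96.7 in the wild-type pools, so the gap between the genotypes exceeded the range within either. The log2 fold change of *col15a1b* was -0.31 (95% interval -0.50 to -0.12), with an adjusted p of 0.0703 by edgeR and 0.0142 by DESeq2. *col18a1*, the other multiplexin and the precursor of endostatin, overlapped between the genotypes at 29.3 ± 1.63 and 29.4 ± 4.63 FPKM.

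Among the FACIT genes, *col12a1a*, whose product binds type I fibrils in skin and tendon, had 396, 382 and 393 CPM in the mutant pools and 502, 434 and 420 CPM in the wild-type pools. The groups did not overlap, and the log2 fold change of -0.21 (95% interval -0.44 to 0.02) did not pass the test (adjusted p = 0.250, edgeR's quasi-likelihood test). Its copy *col12a1b*, and the rows of *col14a1a*, *col14a1b* and *col19a1*, had log2 fold changes between -0.17 and 0.04. The 10 FACIT rows had a median log2 fold change of -0.07.

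The 6 type IV genes encode the network of basement membranes, and their log2 fold changes ran from -0.22 to -0.07 with all 6 intervals within 1.5-fold. *col4a5* and *col4a6*, required in zebrafish for the lamina targeting of retinal axons in the tectum, were the most abundant per length, at 70.8 ± 4.79 and 27.8 ± 1.25 FPKM in the mutant and 74.3 ± 8.996 and 29.3 ± 2.22 FPKM in the wild type. The ubiquitous pair *col4a1* and *col4a2* was at 11.4 ± 0.593 and 12.969 ± 1.14 FPKM in the mutant and 11.4 ± 1.02 and 13.2 ± 1.09 FPKM in the wild type. *col4a3*, of the basement membranes of kidney and eye in mammals, did not overlap between the genotypes, and its log2 fold change was -0.22 (95% interval -0.49 to 0.04).

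Collagens that tie the epidermis to the dermis were measured in whole heads as well. *col17a1a* and *col17a1b* encode the transmembrane collagen of hemidesmosomes, and their log2 fold changes were -0.14 (95% interval -0.60 to 0.31) and -0.21 (95% interval -0.54 to 0.12). *col7a1* and *col7a1l*, of the anchoring fibrils below them, each had -0.06, with intervals of -0.39 to 0.27 and -0.62 to 0.50. The genotypes overlapped in all 4 genes. Keratins and other markers of epidermis had a summed level of 10416 to 13243 CPM in the mutant pools and 15021 to 17890 CPM in the wild-type pools, without overlap. All 10 of these markers had a log2 fold change below 0, beside 11783 of the 22753 genes tested. Of the 10, *krt8*, *cyt1* and *cyt1l* had an edgeR adjusted p of at most 0.05, which is 3, beside 2.17% of all genes lower. The part of the epidermal markers in the values of the skin collagens was not tested.

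Type VI collagen forms beaded microfibrils around cells of muscle and connective tissue. *col6a1* and *col6a2*, which encode chains of 1 trimer, had log2 fold changes of -0.14 (95% interval -0.47 to 0.18) and -0.03 (95% interval -0.37 to 0.30). The 5 rows of the type had a median of -0.09, and all 5 intervals lay within 1.5-fold. Markers of skeletal muscle had a median log2 fold change of -0.13, and their summed levels of 11845 to 15158 CPM in the mutant and 13801 to 16710 CPM in the wild type overlapped.

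The values of many collagens moved together from pool to pool. Wild-type pool 1 was above the mean of the 6 pools for 46 of the 51 rows and wild-type pool 2 for 39, whereas wild-type pool 3 was above it for 9. Of the mutant pools, pool 2 was above the mean for 8 rows, and pools 1 and 3 for 23 and 21. Wild-type pool 3 was thus low in most rows, and for *col2a1a* it was the lowest of all 6 pools. The median log2 deviation of the collagens was -0.02, -0.12 and -0.02 in the mutant pools and 0.18, 0.10 and -0.13 in the wild-type pools. Over all genes tested it lay between -0.01 and 0.02 in each pool. Compared with the wild-type pool of the same number, collagen rows were lower in the mutant for 44 of 51 in pool 1, for 46 in pool 2 and for 15 in pool 3. A row lower in all 3 such pairs was seen for 12 of the 51 collagens, beside 25.1% of all genes tested. No share of all genes is given for single pairs or for rows above the mean. Without wild-type pool 3 the median log2 fold change of the collagens was -0.20, and without wild-type pool 1 it was -0.04.

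**Figure D4:**
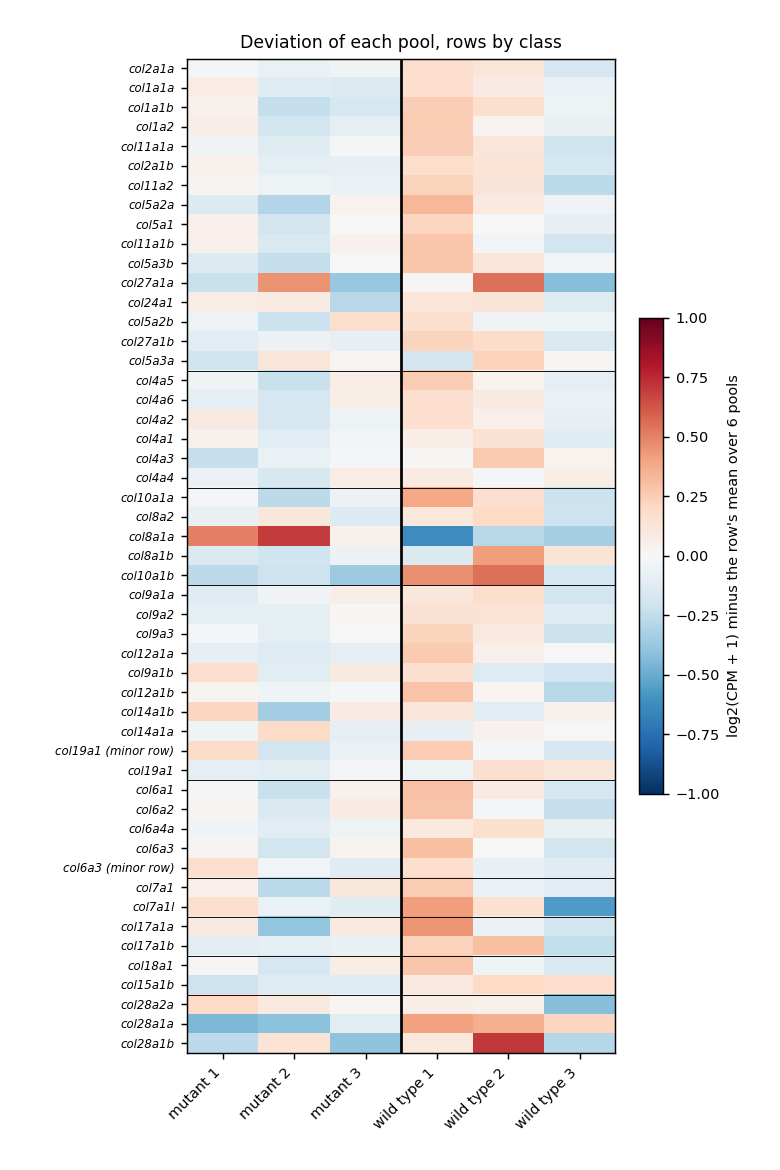
Deviation of each pool from the mean of all 6 pools for the 51 collagen rows, as log2(CPM + 1), with rows grouped by class in the order of the plot of levels. Red is above and blue below the mean, and the black vertical line separates the 3 mutant from the 3 wild-type pools. Wild-type pools 1 and 2 are above the mean in 46 and 39 rows, while wild-type pool 3 is above it in 9.

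Scatter within a genotype differed between genes. The coefficient of variation over 3 pools had a median of 8.55% in the mutant and 13.7% in the wild type across the 51 rows. Averaged over the genotypes it was smallest in *col15a1b* at 3.41% and largest in *col28a1b* at 36.8%, *col27a1a* at 33.9% and *col10a1b* at 28.3%.

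Because a trimer needs its chains in proportion, ratios per exonic length were formed within each pool for 15 pairs of partner or related chains. Across all pools, *col1a1a* exceeded *col1a2* by 1.22 times, *col9a1a* exceeded *col9a2* by 1.15 times and *col9a2* exceeded *col9a3* by 1.07 times. *col4a1* was at 0.870 times *col4a2*, while *col4a5* was at 2.54 times *col4a6* and *col6a2* at 2.40 times *col6a3*. *col2a1a* exceeded *col11a2* by 5.57 times and *col9a1a* by 2.98 times, and *col10a1a* was at 0.408 times *col2a1a*.

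The ratios of the genotypes did not overlap for 6 of the 15 pairs. These 6 are not independent, since *col1a1b* and *col6a2* each enter more than 1 of them. No share over ratios of other gene pairs is given to set beside this count. Among single genes tested, every mutant pool was below every wild-type pool for 13.2% and above for 16.1%. With 3 pools against 3 a two-sided exact permutation test cannot give a p below 0.1, and each of these 6 ratios reached that value, 0.25 after adjustment over the 15 ratios. The largest difference was in *col8a1a* over *col8a2*, with log2 ratios of -1.82, -1.79 and -2.28 in the mutant pools and -3.37, -3.01 and -2.67 in the wild-type pools. The mutant ratio was thus higher in every pool, by 1.05 on the log2 scale. It rests on the same counts as the log2 fold changes of 1.01 for *col8a1a* and -0.07 for *col8a2*. In type I collagen, the log2 ratio of *col1a1a* to *col1a1b* was 0.35 ± 0.0468 in the mutant and 0.22 ± 0.0381 in the wild type, and that of *col1a1b* to *col1a2* was -0.04 ± 0.0281 against 0.06 ± 0.0716. The ratio of *col5a1* to *col5a2a* was higher in the mutant by 0.17 on the log2 scale and that of *col6a2* to *col6a3* by 0.06, while that of *col6a1* to *col6a2* differed by -0.11. For the other 9 ratios, among them all those between types II, IX and XI, the genotypes overlapped.

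**Figure D5:**
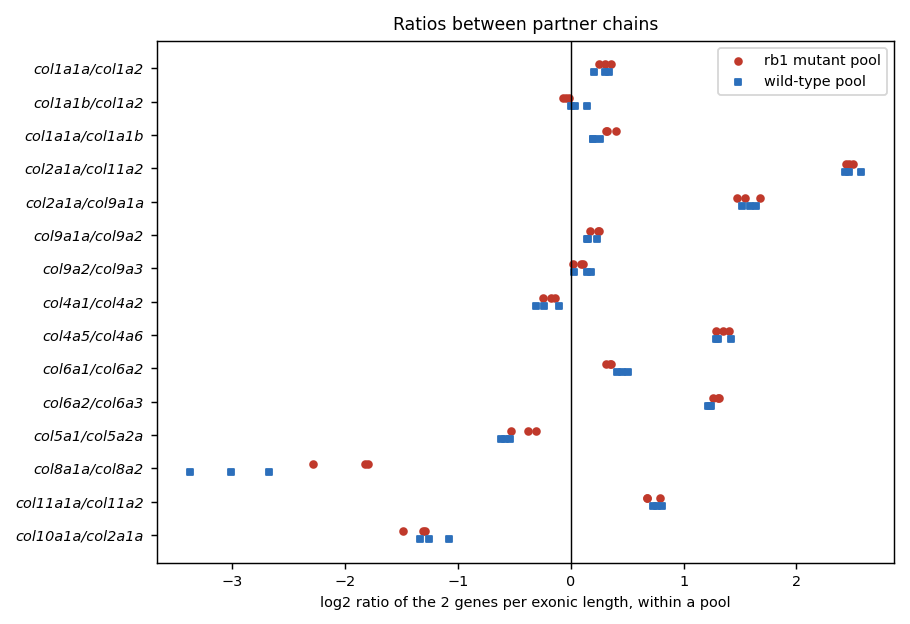
Log2 ratio of 2 collagen genes per exonic length within each pool, for 15 pairs of chains. Red circles are mutant pools, blue squares wild-type pools, and the line at 0 marks equal levels. The pools of the genotypes separate most clearly for *col8a1a* over *col8a2*, where the means differ by 1.05.

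Zebrafish keep duplicate copies of many collagen genes, and 13 such a and b pairs were measured. The copy named a was the more abundant per length in 11 pairs, and the order of the copies was the same in all 6 pools in 12 pairs. The copies were most unequal for *col10a1*, where *col10a1a* exceeded *col10a1b* by 431 times as a geometric mean over pools, with a range of 237 to 701. In *col5a3* the b copy led by 22.9 times, in *col9a1* the a copy by 16.7 times, and in *col5a2* the a copy by 8.35 times. *col2a1a* exceeded *col2a1b* by 3.53 times with little change from pool to pool, between 3.40 and 3.63. The copies were closest in *col1a1* at 1.22 times and in *col14a1*, where *col14a1b* led by 1.41 times and the order was turned in 1 pool. Counts came from uniquely aligned reads, so stretches shared by 2 copies or by the 2 rows of *col6a3* or *col19a1* may be undercounted.

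Some collagens lie side by side in the genome, as read from the gene order of NCBI RefSeq on the assembly GRCz12tu, in which the symbols of 50 of the 51 rows were found. *col4a1* and *col4a2* on chromosome 9, *col4a3* and *col4a4* on chromosome 15, and *col4a5* and *col4a6* on chromosome 7 have no protein-coding gene between them. *col6a1* and *col6a2* on chromosome 11, and *col19a1* and *col9a1b* on chromosome 13, are separated by 1 protein-coding gene. Neighbours had log2 fold changes of -0.07 and -0.09 for *col4a1* and *col4a2*, of -0.22 and -0.11 for *col4a3* and *col4a4*, and of -0.13 and -0.13 for *col4a5* and *col4a6*. The values were -0.14 and -0.03 for *col6a1* and *col6a2*, and they had opposite signs for *col19a1* at -0.17 and *col9a1b* at 0.10. None of these 10 genes passed the test. Whether counting used strand is not given in the sources used here, so reads from overlapping genes could not be separated.

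The proteins that make, export, cleave and hold collagen were followed in 7 lists with 128 genes tested. By edgeR's quasi-likelihood test with an adjusted p of at most 0.05, 5 of them were lower and 1 was higher in the mutant, beside 2.17% and 3.82% of all genes, and the median log2 fold change was -0.12. With the pool number as a block the counts were 6 lower and 3 higher, beside 4.03% and 5.1% of all genes. With DESeq2 they were 12 lower and 5 higher, beside 5.16% and 6.25% of all genes. The enzymes and chaperones that modify and fold the chains in the endoplasmic reticulum were 23 genes with a median of 0.29. The fitted value was above 0 for 21 of them, beside 10970 of the 22753 genes tested. In edgeR 0 passed an adjusted p of 0.05. An unadjusted p under 0.05 was seen for 5, 3 of them higher, beside 23.3% of all genes. Among them is *serpinh1b*, which encodes the collagen chaperone Hsp47, at 56.3, 28.6 and 22.6 CPM in the mutant pools against 19.6, 11.1 and 12.7 CPM in the wild-type pools. Every mutant pool was above every wild-type pool, with mutant pool 1 far above the others, and the log2 fold change was 1.31 (95% interval 0.47 to 2.14). The adjusted p of *serpinh1b* was 0.0765 by edgeR, 0.0116 with the pool number as a block and 0.00163 by DESeq2. *p3h2*, a prolyl 3-hydroxylase gene, had a log2 fold change of -0.49, with an adjusted p of 0.0864 by edgeR, 0.0358 with the block and 0.0232 by DESeq2. DESeq2 alone also placed *fkbp9*, a folding enzyme gene, at an adjusted p of 0.0343, with a log2 fold change of 0.75. Among 13 genes of export from the endoplasmic reticulum, *sec13*, a subunit of the COPII coat, was higher, at 60.4, 50.3 and 65.3 CPM in the mutant pools against 44.9, 33.7 and 35.9 CPM in the wild-type pools. The groups did not overlap (log2 fold change 0.62, adjusted p = 0.0475 in edgeR's quasi-likelihood test). *creb3l1*, a transcription factor gene of secretory cells, had a log2 fold change of -0.87 and passed 0.05 with DESeq2 alone (adjusted p = 0.00237).

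Outside the cell, *loxl2a*, a lysyl oxidase-like enzyme of the kind that cross-links collagen, was the only 1 of 19 cleavage and cross-linking genes past that limit. It had 17.2, 13.9 and 17.3 CPM in the mutant pools and 38.7, 34.0 and 23.2 CPM in the wild-type pools, with no overlap (log2 fold change -0.99, adjusted p = 0.0285 in edgeR's quasi-likelihood test). Of 21 genes of collagen breakdown and its inhibitors, the matrix metalloproteinase *mmp30* and the inhibitor *timp2a* were lower, with log2 fold changes of -0.61 and -0.50 (edgeR adjusted p = 0.0243 and 0.0323). The collagen receptor gene *itga11b*, encoding an integrin alpha chain, was lower by the same test among 15 receptor genes, with a log2 fold change of -0.60 (edgeR adjusted p = 0.0408). With DESeq2 alone, 4 further genes of these lists had an adjusted p of at most 0.05, *loxl5b* with a log2 fold change of 0.91 and *mmp2*, *mmp14a* and *mmp14b* with -0.38, -0.35 and -0.29.

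The clearest difference among these partners was in *kera*, which encodes keratocan, a small leucine-rich proteoglycan that spaces collagen fibrils in the cornea. It had 26.7, 27.2 and 36.4 CPM in the mutant pools and 63.4, 70.8 and 58.6 CPM in the wild-type pools, and the groups were far apart. Its log2 fold change was -1.09 (95% interval -1.43 to -0.76, edgeR adjusted p = 0.00766), and a block for the pool number gave an adjusted p of 0.0143, past 0.05 but not past the limit of the study. All 19 small proteoglycans and fibril partners had fitted values below 0, beside 11783 of the 22753 genes tested. Their median was -0.20, and *kera* was the only 1 past an adjusted p of 0.05. The 18 basement membrane partners, laminins and nidogens among them, had a median of -0.11 with 0 past that limit in edgeR. An unadjusted p under 0.05 was seen for 4, beside 23.3% of all genes tested. The laminin gene *lama1* had a log2 fold change of 0.48, with an adjusted p of 0.0853 by edgeR, 0.0245 with the pool number as a block and 0.0390 by DESeq2. DESeq2 alone also passed *lamb1b* and *lamb4*, with log2 fold changes of -0.35 and -0.48.

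Markers of some other tissues in the heads moved between the genotypes as well. The 6 endothelium and 4 notochord markers had median log2 fold changes of -0.05 and 0.04. Of these, 0 had an adjusted p of at most 0.05 in edgeR, with the pool number as a block or by DESeq2. *loxl5b*, also planned as a notochord marker, was counted with the cross-linking genes and is not among the 4. Its log2 fold change was 0.91, with an adjusted p of 0.0736 by edgeR, 0.0752 with the pool number as a block and 0.0384 by DESeq2. Among 9 tested markers of bone cells, *spp1* and *bglapl* were lower in the mutant, with log2 fold changes of -1.30 and -1.42 in edgeR's quasi-likelihood test (adjusted p = 0.00395 and 0.0348), and the summed level of the bone markers was 184 to 207 CPM in the mutant against 221 to 241 CPM in the wild type. All 8 markers of the retina had a fitted value below 0, beside 11783 of the 22753 genes tested. The rod genes *rho* and *gnat1* were lower, with log2 fold changes of -0.69 and -0.74 (edgeR adjusted p = 0.0161 and 0.0195). The summed levels of the retina markers, 12084 to 16409 CPM in the mutant and 15878 to 17919 CPM in the wild type, overlapped. At an edgeR adjusted p of at most 0.05, 2.17% of all genes tested were lower. Markers of neurons, the main cells of the brain, had summed levels of 2225 to 2889 CPM in the mutant and 2475 to 2709.8 CPM in the wild type, which overlapped. Every mutant pool was below every wild-type pool for 2 of these 8 markers, beside 13.2% of all genes tested. DESeq2 called 1 neuron marker of 8 and 1 skeletal muscle marker of 10 lower at an adjusted p of at most 0.05. It also called 5 epidermis markers of 10 and 3 retina markers of 8 lower, beside 5.16% of all genes. Of the genes of trunk organs, *hoxc12a* and *hoxc13a* had no counts in any pool. The liver gene *fabp10a* was detected at 407, 138 and 398 CPM in the mutant and 895, 703 and 805 CPM in the wild type. Its adjusted p was 0.0749 by edgeR and 0.0303 with the pool number as a block. Across the 7 trunk organ genes tested the median log2 fold change was -0.04, with 4 below 0 and 3 above. DESeq2 called 1 of these 7 lower at an adjusted p of at most 0.05. The part of these cell types in the values of the collagens and of their partners was not tested.

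The rows *col4a3bpa* and *col4a3bpb*, matched by name only, had log2 fold changes of -0.12 and -0.19 and did not pass the test (adjusted p = 0.579 and 0.212, edgeR's quasi-likelihood test). Written in capitals in the table, 5 further collagen rows for types XVI, XVIII, XXI, XXVI and XXVIII were not matched by the rule. Their log2 fold changes ran from -0.10 to 0.23, and 0 passed an adjusted p of 0.05 or an unadjusted p of 0.05.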

How the data were processed

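RNA-Seq of 3 *rb1Δ7/Δ7* and 3 +/+ pools of 5 heads was analysed. The authors prepared TruSeq libraries, aligned reads to GRCz10 with GSNAP, kept unique alignments and used HTSeq for counting, and the deposited counts are raw values per gene for 12 lanes. The deposited FPKM follow from those counts and the authors' exonic lengths (largest relative difference 1.11e-07). The deposited DESeq2 comparison of the authors, with fold changes and p-values, was not used.

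The 2 lanes of a pool were summed. The quasi-likelihood test of edgeR 4.0.16 (R 4.3.3) was fitted with genotype alone, TMM factors and the default filter on low counts, and p-values were adjusted over 22753 genes by the Benjamini-Hochberg method. A standard error is the log2 fold change divided by the square root of F, and 95% intervals use the t distribution. DESeq2 1.42.0, other scalings and filters, a pool-number block and leaving out each pool were alternatives. Ratios were tested by exact permutation over the pools, after adding 0.5 counts, and scipy 1.17.1 was used for the Benjamini-Hochberg adjustment. The edgeR fit with genotype alone was tested on simulated counts. FPKM values given here were computed from summed counts.

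Pool numbers are shared between genotypes in the labels. Deviations of same-numbered pools from their group means correlated at 0.412, 0.495 and 0.245 across genes, those of other pairs at -0.422 to 0.111. Deviations within a genotype sum to 0, so these correlations are not independent of each other. On these correlations alone, pool numbers were used as pairs in the block fit, the same-number comparisons and the sign-flip test. The main edgeR fit, DESeq2 and the permutation test did not use this pairing. No label says that pools came from separate clutches, so p-values measure the spread between these pools.

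The members, the classes and the gene lists were chosen with earlier results of these data known. Genes named by rule were *col2a1a*, members at an adjusted p of at most 0.05, in each class the most abundant member and that with the largest change, and both genes of each ratio. Partner and marker genes were named when at an adjusted p of at most 0.05 in edgeR without the block. Other genes were named after their values were seen.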

Additional observations from a re-analysis of the deposited data

How the results depend on the processing

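DESeq2 called 1 collagen gene lower and 1 higher by the rule of the study, where edgeR called 0, and 3 lower at an adjusted p of 0.05, adding *col15a1b* and *col10a1b* to *col28a1a*. It called 1107 genes in all against 269, and the cause was not tested. The pool-number block gave 2 collagens lower at 0.05, adding *col10a1b*, and changed no other call of a collagen. Among the partner and marker genes it added *serpinh1b*, *p3h2*, *lama1*, *acanb* and *fabp10a*. With pool numbers as pairs, 9 of the 15 ratios had 1 direction in all 3 pairs. A sign-flip test cannot give a p below 0.25 for these, and no share over other gene pairs is given. Scaling by library totals alone left 3 rows, not 5, with every mutant pool below the wild type, and a median log2 fold change of -0.0358. Normalization by relative log expression, no filter, and a filter of 1 CPM in 3 pools moved no count by more than 1.5 times.

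With 1 pool left out, between 0 and 1 collagens were lower and between 0 and 1 higher at 0.05, and none was called by the rule of the study. Rows with every mutant pool below the wild type numbered 5 to 23, with 23 without wild-type pool 3, 11 without mutant pool 3 and 8 without mutant pool 1. Rows above numbered 1 to 2, and no share of all genes is given for these smaller sets of pools. The median ran from -0.198 to -0.0380. The mutant minus wild-type share of counts on collagens was -0.0671 percentage points with all pools and ran from -0.160 to 0.0128, above 0 without wild-type pool 1. Across 31 named collagens, 371 values under alternatives gave 358 on the same side of 0.05, 9 that lost the call and 4 that gained it. The 9 that lost it were all of *col28a1a* or *col8a1a* with a pool left out. Among the 358 values, 12 had the other sign than in the main fit, with an adjusted p above 0.05 in both fits. The interval was wide both in lowly counted rows such as *col10a1b*, with 24 to 79 counts in a pool, and in *col27a1a*, with 10867 counts over all pools.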
